A study of Sus scrofa domesticus with 4 samples.

Results

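Transcripts of 7 genes of glycolysis and of the response to low oxygen, LDHA, LDHB, GAPDH, PGK1, EPAS1, HIF1A and VEGFA, were followed in the anterior pituitary of pigs. A member was taken as every non-control probe whose RefSeq accession belongs to one of these genes in the NCBI table of pig genes. This gave 25 probes for 6 of the 7 genes, out of 2459 genes that could be named. No probe mapped to GAPDH by this rule, so GAPDH is not analysed here. The tissue came from 8 mature gilts (young female pigs) of about 110 kg, a cross of Large White with Polish Landrace from a private farm. Pregnant gilts (n = 4) had been bred naturally, were killed on days 12 to 13 and carried conceptuses. Cyclic gilts (n = 4) were killed on days 12 to 13 of the estrous cycle, which was checked on their ovaries. RNA of 1 pregnant gilt was hybridised together with that of 1 cyclic gilt, in different dyes, on each of 4 arrays, so every probe gave up to 4 log2 ratios of pregnant over cyclic.

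Glycolysis breaks glucose down to pyruvate, and phosphoglycerate kinase, encoded by PGK1, catalyses one of its ATP-yielding steps. Lactate dehydrogenase converts pyruvate and lactate into each other, and its tetramers mix the M subunit, from LDHA, with the H subunit, from LDHB. When oxygen is short, the alpha subunits of hypoxia-inducible factor, HIF-1α from HIF1A and HIF-2α from EPAS1, escape degradation, pair with ARNT and switch on genes such as LDHA, PGK1 and VEGFA. VEGFA encodes a growth factor for blood vessels. In the anterior pituitary the hormone-secreting cells lie against a dense bed of fenestrated capillaries, and the folliculostellate cells between them are a known source of this factor.

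The labels of the samples put the pregnant gilt in Cy3 for arrays 1 and 3, and in Cy5 for the other pair. The general protocol text could be taken to mean Cy3 throughout, and the direction of LDHA and EPAS1 under that reading is given beside their values. Between 60.7% and 71.8% of spots stood well above background in pregnant gilts and between 47.5% and 71.6% in cyclic gilts, and no spot was saturated. The ratios of any 2 arrays correlated with r between 0.03 and 0.45 over 19880 probes. Over the tested probes the ratios had an SD of 0.33, 0.29, 0.58 and 0.28 on arrays 1 to 4, so array 3 was the widest. On array 4, tiles holding 8060 spots, 17.8% of the array, had lost much of their signal, and 5 of the 25 member probes lie in them. All 9 genes set as markers of the hormone-secreting cells were measured, with PRL, POMC and GH1 at mean log2 levels of 17.66, 17.40 and 17.26. The mean ratio of these 9 genes was -0.60, -0.66, 0.16 and 0.25 on arrays 1 to 4, with fitted ratios of single genes from -1.91 to 0.46. At an unadjusted p under 0.05 in limma 1 was lower and 1 higher, against 8.49% and 5.33% of named genes. PRL, the prolactin gene, had -0.89 ± 0.83 (SD, n = 4) with a limma adjusted p of 0.235. In their brightest probes POMC had 0.16 ± 0.64 and GH1 -0.01 ± 2.05 (SD, n = 4 each). Tested POMC probes had fitted ratios from -0.26 to 0.16. GH1 had -0.94, 1.14, -2.39 and 2.16 on arrays 1 to 4. The part of these shifts in the results was not tested. OXT, whose RNA belongs to the posterior lobe and its hypothalamic neurons, was also well above background, at a mean log2 level of 12.68. Levels are normalised log2 intensities and compare gilts within a probe, not probes with each other. With 4 arrays, precision is limited throughout.

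The question was whether early pregnancy sets these transcripts apart from days 12 to 13 of the cycle. LDHA, the tested EPAS1 probe and 2 of 5 tested PGK1 probes had lower values in pregnant gilts on all 4 arrays, by a fitted log2 ratio of 0.29 to 0.45 in size. The other tested PGK1 probes had fitted ratios of -0.18, -0.02 and 0.001. An EPAS1 probe that was not tested had -0.03, -0.09 and 0.18 on arrays 1 to 3. The tested HIF1A probe had positive ratios, which could be measured in both groups on 3 arrays, and LDHB and VEGFA went both ways. None of the 19 member probes that could be tested passed: limma with Benjamini-Hochberg adjustment over 21627 probes gave 0 of 19 an adjusted p under 0.05, against 0% of all probes. At an unadjusted p under 0.05, 5 of the 19 probes were lower in pregnant gilts, against 7.62% of all tested probes, and 0 were higher, against 10.4% of all. The 5 were LDHA, 2 probes of PGK1, EPAS1 and 1 probe of LDHB. That count was 2 of 17 probes without array 2, 3 of 18 without array 4 and 0 of 19 when median centring replaced the loess normalisation. Probes of 1 gene share their target and are not separate results, and 9 of the 19 are of LDHB and 5 of PGK1. By the brightest tested probe of each gene, 2 of 6 members were lower at an unadjusted p under 0.05 in limma, against 8.49% of named genes. By the same measure 0 were higher, against 5.33%. Over all tested probes 57.8% of those at an unadjusted p under 0.05 were higher in pregnant gilts, and 82.2% with median centring.

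Of the 16 tested member probes with a ratio on all 4 arrays, 5 were below 0 on every array and 1 was above 0 on every array, against 11.3% and 14.6% of all probes. The 1 above 0 was HIF1A A_72_P585741, whose cyclic signal on array 4 was below background. The median ratio was -0.02 over the 19 member probes and 0.01 over all tested probes. In none of the 16 probes did the levels of the 4 pregnant gilts all lie below or all above those of the 4 cyclic gilts. Among all probes 1.03% separated the groups downwards and 2.27% upwards. With 4 arrays an exact sign-flip permutation test cannot give a two-sided p below 0.125, so the limma fit across all probes carries the tests. Fewer cells of a type and less RNA per cell cannot be told apart in these whole-tissue samples.

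**Figure D1:**
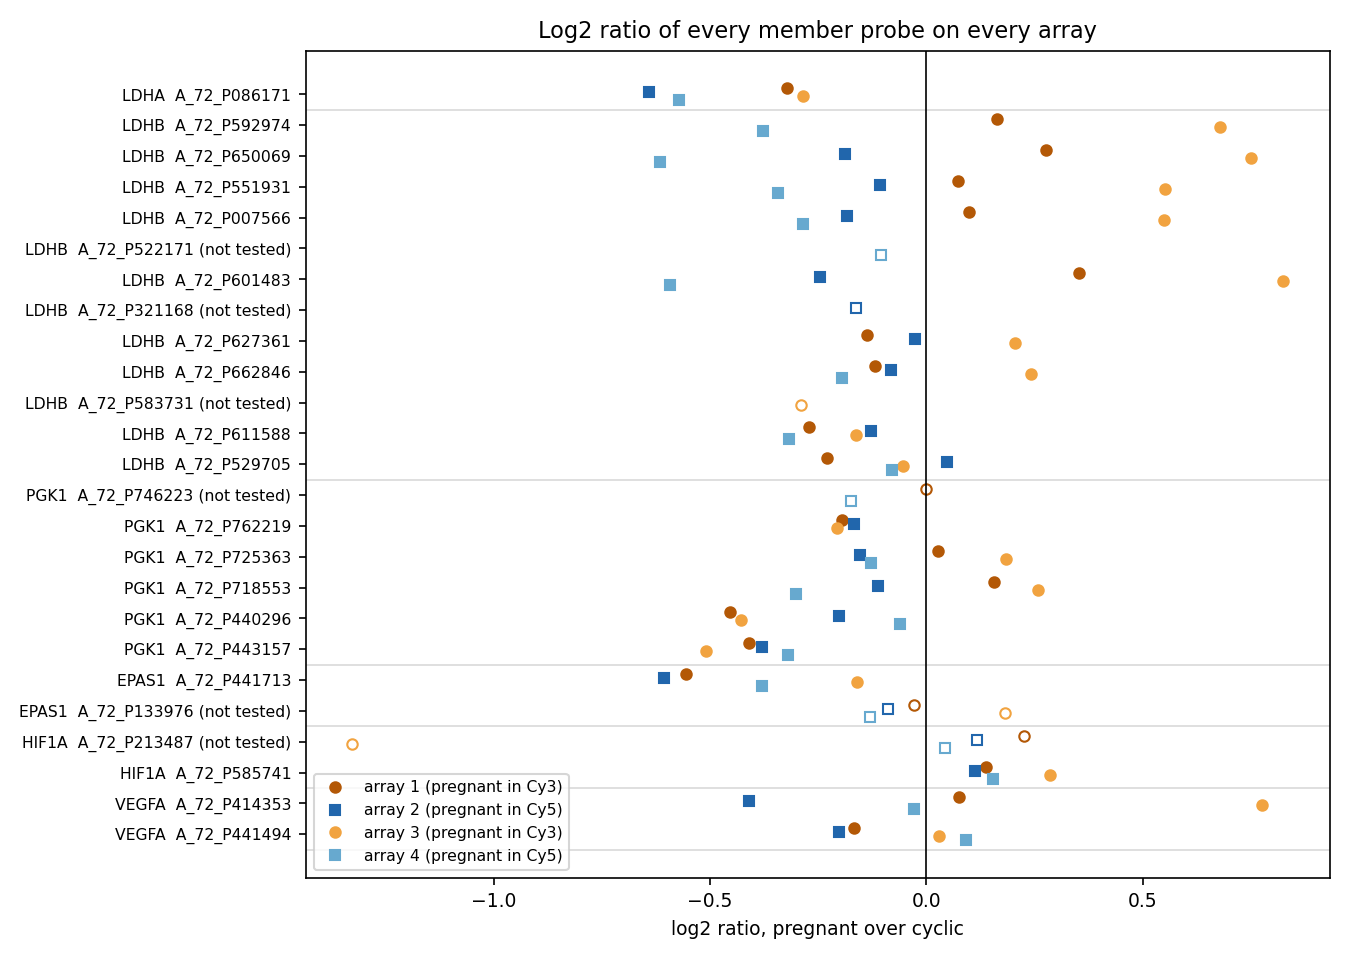
Log2 ratio of pregnant over cyclic gilts (x axis) for each of the 25 member probes (y axis, grouped by gene and ordered by level). Circles are arrays 1 and 3 and squares arrays 2 and 4, and open symbols are probes that were not tested. LDHA, EPAS1 A_72_P441713 and PGK1 A_72_P443157 lie left of 0 on the 4 arrays, while the brightest LDHB probes have circles on the right and squares on the left.

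LDHA, the lactate-producing subunit gene, was lower in the pregnant gilt of every pair. Its single probe, A_72_P086171 (NM_001172363), had log2 levels of 10.34, 10.44, 10.15 and 10.76 in the pregnant gilts of arrays 1 to 4, against 10.66, 11.08, 10.44 and 11.33 in the cyclic gilts. The pregnant gilt of array 4 was above the cyclic gilts of arrays 1 and 3, so the groups overlap and the difference lies within the pairs. The log2 ratios were -0.32, -0.64, -0.28 and -0.57 on arrays 1 to 4, both values with pregnant RNA in Cy5 being the more negative ones. The fitted ratio was -0.45 ± 0.18 (SD, n = 4), 1.37-fold lower in pregnant gilts, with a 95% interval of -0.65 to -0.26. Its limma adjusted p was 0.235 (unadjusted p = 0.00213). Without array 1 the limma adjusted p was 0.0323 at a ratio of -0.44, and a fit of the 8 separate channels gave -0.45 with a limma adjusted p of 0.0372. Those settings called many probes, 3401 without array 1 and 1046 with separate channels, against 0 with all arrays as ratios, and leaving out any other single array did not bring LDHA past the threshold. With median centring the ratio was -0.31, with a limma adjusted p of 0.429 (unadjusted p = 0.0652). With pregnant RNA read as Cy3 on every array the ratio was 0.15.

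LDHB, the heart-type subunit gene that favours the use of lactate, was measured by 12 probes of the accession NM_001113287. The NCBI table holds 2 genes under the symbol LDHB, and this accession belongs to 1 of them, so how far the probes tell their transcripts apart is unknown. Spots flagged by the scan software left 3 of the 12 with a single array, and 9 were tested. Fitted ratios ran from -0.22 to 0.09, 3 negative and 6 positive, with a median of 0.02. The most negative, A_72_P611588, had -0.27, -0.13, -0.16 and -0.32 on arrays 1 to 4, a fitted -0.22 ± 0.09 (SD, n = 4), and a limma adjusted p of 0.272 (unadjusted p = 0.0471). The brightest, A_72_P592974, had 0.16, 0.68 and -0.38 on arrays 1, 3 and 4 and a fitted 0.02 ± 0.53 (SD, n = 3).

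The LDHB ratios went one way on some arrays and the other way on others. Averaged over the tested probes, the ratios of arrays 1 to 4 were 0.02, -0.11, 0.40 and -0.35, a mean of -0.01 ± 0.31 (SD over 4 arrays). All 8 probes read on array 4 were negative, and 7 of 9 were positive on array 3. The brightest probe with a ratio on all arrays, A_72_P650069, had levels of 14.38, 14.25, 14.50 and 14.21 in the pregnant gilts of arrays 1 to 4, against 14.10, 14.44, 13.75 and 14.82 in the cyclic gilts. Its ratios were 0.28, -0.19, 0.75 and -0.62, so it was higher in both pregnant gilts labelled with Cy3 and lower in both labelled with Cy5. The fit takes this as a dye effect of -0.46 beside a ratio of 0.06 ± 0.59 (SD, n = 4), but each orientation was run on different animals, so dye and gilt cannot be told apart.

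The gap between the orientations differed among the LDHB probes. Arrays 1 and 3 exceeded arrays 2 and 4 by 0.92 in A_72_P650069 and by 1.01 in A_72_P601483, against 0.01 in A_72_P611588 and -0.13 in A_72_P529705, the dimmest pair of probes. Over the 9 probes, which share their gilts and their target, the level and this gap correlated with a Pearson r of 0.79 and a Spearman rho of 0.78, given as a description. With levels taken from arrays 1 to 3, a check chosen after seeing the data, these were 0.74 and 0.67, and A_72_P662846, at 14.05 among the bright probes, had a gap of 0.20. Among all probes the median gap was 0.13 at levels of 12 to 13 and also at 13 to 14, and -0.21 for the 580 probes above 14. The LDHB probes A_72_P592974, A_72_P650069, A_72_P551931 and A_72_P007566 have mean levels above 14. Their gaps of 0.80, 0.92, 0.54 and 0.56 were opposite in sign to the median there. Of the LDHB probes A_72_P601483 and A_72_P662846 lie in the dim tiles of array 4, and the levels of 7 LDHB probes over the 8 gilts correlated with each other with r between -0.96 and 0.97.

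**Figure D2:**
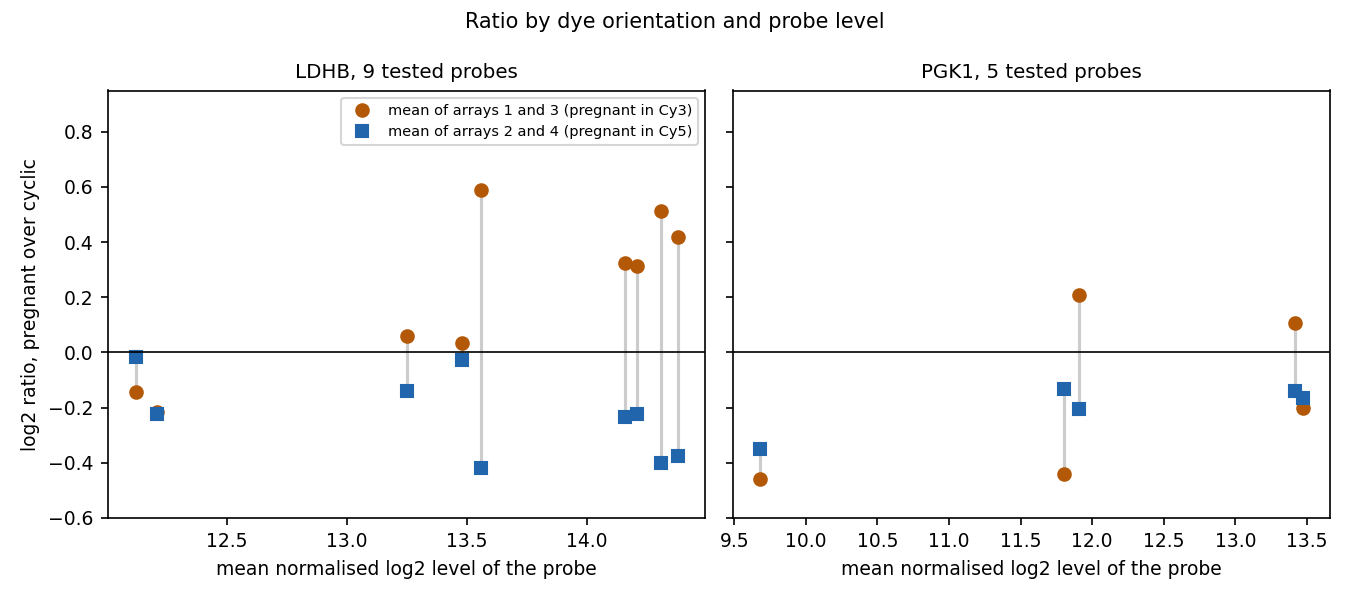
Mean log2 ratio of pregnant over cyclic gilts (y axis) against the mean normalised log2 level of each tested probe (x axis) of LDHB and PGK1. Circles average arrays 1 and 3, squares arrays 2 and 4, and a grey line joins the pair of a probe. In LDHB the line is longest, 1.01 log2 units, in A_72_P601483, and shortest, 0.01, in A_72_P611588.

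PGK1 was measured by 6 probes of NM_001099932, of which 5 were tested and 4 had negative fitted ratios. A_72_P443157 had levels of 9.02, 9.33, 9.08 and 10.46 in the pregnant gilts of arrays 1 to 4, against 9.43, 9.71, 9.59 and 10.78 in the cyclic gilts. Both gilts of array 4 stood above the other 6, and within every pair the pregnant gilt was lower. Its ratios of -0.41, -0.38, -0.51 and -0.32 gave a fitted -0.41 ± 0.08 (SD, n = 4), 1.32-fold lower, with a 95% interval of -0.61 to -0.20. The limma adjusted p was 0.235 (unadjusted p = 0.00373), and 0.0343 without array 1, where 3401 probes passed. It was 0.126 with separate channels, the ratio was -0.27 with median centring, and it was -0.06 with pregnant RNA read as Cy3 on every array.

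The other PGK1 probes were closer to 0. A_72_P440296 had -0.45, -0.20, -0.43 and -0.06, a fitted -0.29 ± 0.19 (SD, n = 4) with a limma adjusted p of 0.235 (unadjusted p = 0.0156). A_72_P762219, the brightest tested probe, had -0.20, -0.17 and -0.21 on arrays 1 to 3 and was left out on array 4 for an outlier flag. A_72_P725363 had a fitted -0.02 ± 0.16 and A_72_P718553 a fitted 0.001 ± 0.26 (SD, n = 4 each), both positive on arrays 1 and 3 and negative on arrays 2 and 4. Averaged over the 4 probes with a ratio on all arrays, PGK1 had -0.17, -0.21, -0.12 and -0.20 on arrays 1 to 4, a mean of -0.18 ± 0.04 (SD, n = 4; exact sign-flip permutation p = 0.125, the smallest possible). Single tested probes differed from each other by a mean SD of 0.21 within an array. Averaging over probes narrows the spread between arrays, so the SD of the average is not comparable with that of single probes. Single probes with a ratio on all arrays had SDs of 0.08 to 0.26 between arrays.

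EPAS1, which encodes HIF-2α and is known for its expression in endothelial cells, was lower in the pregnant gilt of every pair by its brighter probe. A_72_P441713 (NM_001097420) had levels of 7.82, 7.64, 8.40 and 7.67 in the pregnant gilts of arrays 1 to 4, against 8.37, 8.25, 8.56 and 8.05 in the cyclic gilts. The groups overlap through the pregnant gilt of array 3. Ratios of -0.56, -0.61, -0.16 and -0.38 gave a fitted -0.43 ± 0.20 (SD, n = 4), 1.34-fold lower, with a 95% interval of -0.70 to -0.15. The limma adjusted p was 0.235 (unadjusted p = 0.0104), and 0.049 in the fit of separate channels, where 1046 probes passed. With median centring the ratio was -0.37, with a limma adjusted p of 0.425 (unadjusted p = 0.0602). With pregnant RNA read as Cy3 on every array the ratio was 0.07. This is a dim probe, with median signals of 137, 318, 287 and 160 in pregnant gilts over local backgrounds of 32.5, 61, 37 and 43, and of 559, 182, 433.5 and 106 in cyclic gilts over 49.5, 27, 46 and 34.

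The second EPAS1 probe, A_72_P133976, had ratios nearer to 0, of -0.03, -0.09, 0.18 and -0.13 on arrays 1 to 4, with signals not well above background in either channel of array 4, where it lies in the dim tiles. It was therefore not tested. Its pregnant levels averaged 6.62 ± 0.39 and its cyclic levels 6.63 ± 0.27 (SD, n = 4 each). These means include array 4, whose levels of 6.12 and 6.25 came from signals below their local background.

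HIF1A, which encodes HIF-1α, had positive ratios in its tested probe. A_72_P585741 (NM_001123124) had levels of 7.94, 8.10, 8.35 and 6.63 in the pregnant gilts of arrays 1 to 4, against 7.81, 7.99, 8.06 and 6.47 in the cyclic gilts. Array 4 was lowest in both groups, and its spot lies in the dim tiles, where the cyclic signal of 40 was below its background of 42. The probe entered the test there through the pregnant channel, the group with the higher value, so its ratio on array 4 is no measured difference, and it was not tested where both groups had to be well above background. The ratios of 0.14, 0.11, 0.29 and 0.16 gave a fitted 0.17 ± 0.08 (SD, n = 4) with a 95% interval of -0.03 to 0.38 and a limma adjusted p of 0.321. Over arrays 1 to 3 the mean was 0.18 ± 0.10 (SD, n = 3). The other HIF1A probe, A_72_P213487, had 0.23 and 0.12 on arrays 1 and 2 but -1.33 on array 3, where the pregnant level of 9.09 lay below 10.56 and 10.37 on arrays 1 and 2 while the cyclic level of 10.42 did not. It was not well above background on array 4 and was not tested.

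VEGFA, the vessel growth factor gene, showed no common direction in 2 probes of NM_214084. A_72_P414353 had levels of 7.41, 7.07, 7.95 and 8.11 in the pregnant gilts of arrays 1 to 4, against 7.33, 7.48, 7.18 and 8.13 in the cyclic gilts. Its ratios of 0.08, -0.41, 0.78 and -0.03 gave a fitted 0.10 ± 0.49 (SD, n = 4), with a 95% interval of -0.28 to 0.49 and a limma adjusted p of 0.745. Array 3, whose ratios spread most widely over all tested probes, carried the positive value: without it the ratio was -0.07. A_72_P441494 had -0.17, -0.20, 0.03 and 0.09, a fitted -0.06 ± 0.14 (SD, n = 4) with an interval of -0.31 to 0.18 and a limma adjusted p of 0.758. Its median signals, 41.5 to 84 in pregnant and 48 to 90 in cyclic gilts, lay close to backgrounds of 32 to 38.

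**Figure D3:**
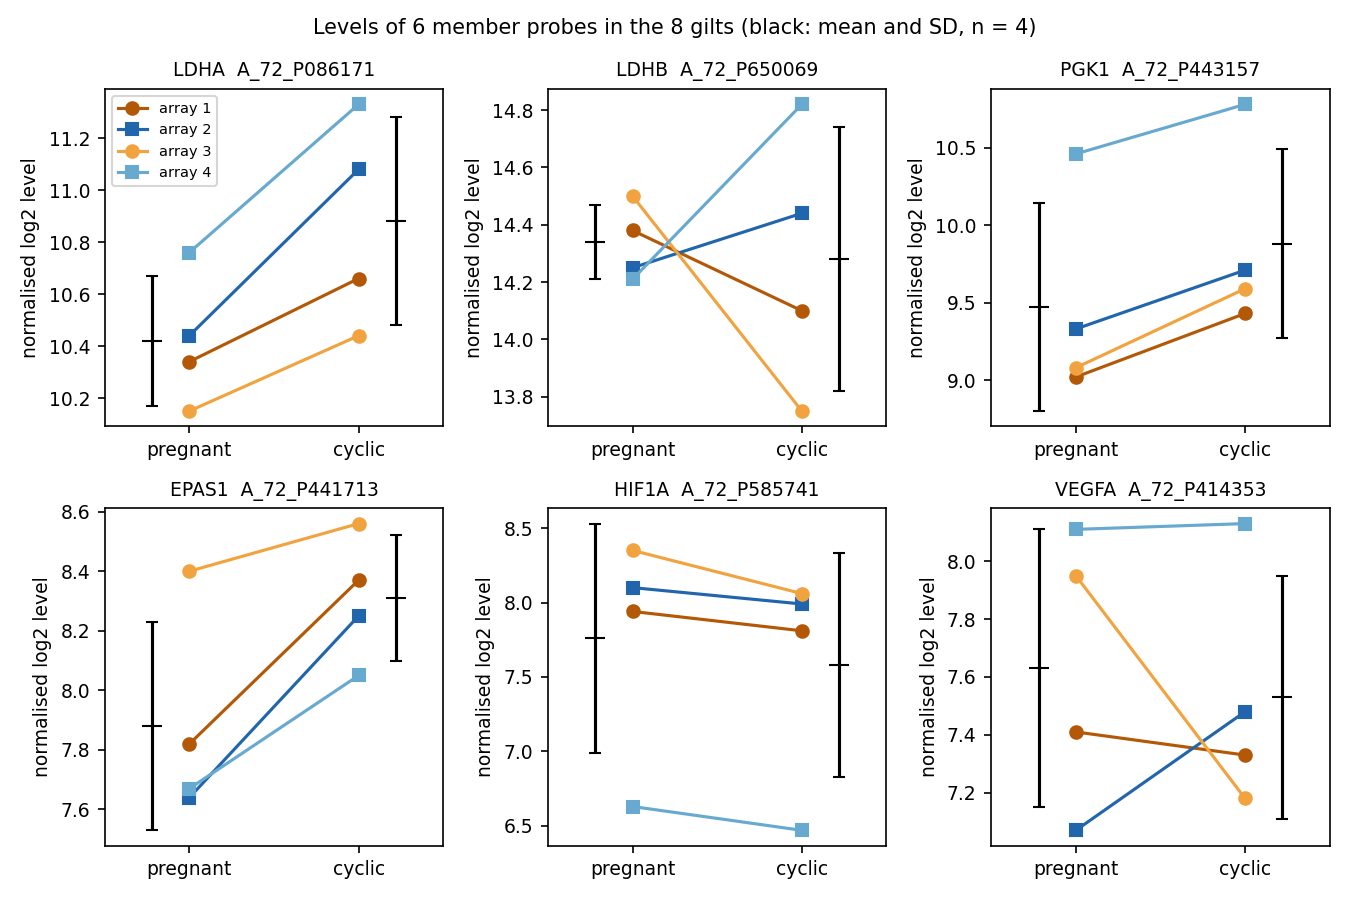
Normalised log2 level (y axis, a separate scale for each probe) of 1 probe per gene in pregnant (left) and cyclic (right) gilts. A line joins the 2 gilts of an array, and black bars give mean and SD over 4 gilts. Lines rise from left to right on the 4 arrays for LDHA, PGK1 A_72_P443157 and EPAS1, fall for HIF1A, whose cyclic signal on array 4 was below background, and cross for LDHB and VEGFA. The PGK1 probe shown is the dimmest tested one and has the most negative fitted ratio of that gene. PGK1 A_72_P725363, the brightest with a ratio on all arrays, is not drawn. Its ratios were 0.03, -0.15, 0.18 and -0.13 on arrays 1 to 4.

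Within an array, unequal change of 2 genes can be read as the difference of their log2 ratios. LDHA minus LDHB, with each gene as the mean of its tested probes, was -0.34, -0.53, -0.68 and -0.22 on arrays 1 to 4, a mean of -0.44 ± 0.20 (SD, n = 4; exact sign-flip permutation p = 0.125, the smallest possible). With the brightest LDHB probe, which has no ratio on array 2, the difference was -0.55 ± 0.39 (SD, n = 3; exact sign-flip permutation p = 0.25, again the smallest possible). EPAS1 minus HIF1A was -0.69, -0.72 and -0.45 on arrays 1 to 3, a mean of -0.62 ± 0.15 (SD, n = 3; exact sign-flip permutation p = 0.25, the smallest possible). Array 4 is left out there because its HIF1A spot was below background in the cyclic gilt, and with it the mean was -0.60. With pregnant RNA read as Cy3 on every array the mean over the 4 arrays was 0.03. Neither difference can pass a threshold of 0.05 in a test of this size.

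Of the other genes of glucose and lactate metabolism none passed, and the count by sign depended on the normalisation. Of 48 listed genes 13 had a named probe and 11 were tested, and 8 of the 11 had negative and 3 positive ratios, with a median of -0.12 against -0.02 over all 1744 named genes tested, of which 56.5% were negative. With median centring 4 of the 11 were negative and 7 positive, and 36.6% of all named genes were negative. At an unadjusted p under 0.05 in limma 0 of the 11 were lower, against 8.49% of named genes, and 0 were higher, against 5.33%. These are the brightest probes: of all 30 tested probes of the list 7 were lower at that p, of PDK4, DLD, ENO3 and GPI, against 7.62% of all probes. No named gene had a limma adjusted p under 0.05. PGAM2, a phosphoglycerate mutase known from muscle, had -0.35 ± 0.29 (SD, n = 4) and was 0.02 on array 2. GPI, which converts glucose 6-phosphate to fructose 6-phosphate, had -0.15 ± 0.07 in its brightest probe and 0.02 with median centring, while its second probe had -0.37, -0.31, -0.41 and -0.48 on arrays 1 to 4 with a limma adjusted p of 0.235 (unadjusted p = 0.00506). ENO3, an enolase, had -0.25 ± 0.34, TPI1, triose-phosphate isomerase, -0.12 ± 0.19, and PFKM, a phosphofructokinase subunit, 0.09 ± 0.36 on 3 arrays. Of the carriers, SLC16A1, which moves lactate across the membrane, had 0.12 ± 0.21 and the glucose transporter gene SLC2A4 0.20 ± 0.83. The tested probes of SLC2A4 had fitted ratios from -0.06 to 0.20, and those of TPI1 from -0.12 to 0.05.

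PDK1 and PDK4 encode kinases that switch pyruvate dehydrogenase off, and DLAT and DLD encode subunits of that complex. PDK1 had -0.12 ± 0.10 (SD, n = 4), DLAT -0.02 ± 0.05 (SD, n = 4) and DLD -0.19 ± 0.15 (SD, n = 3). With median centring the brightest probes of DLAT and DLD had 0.11 and 0.09. That DLD probe lies in the dim tiles of array 4 and has no ratio on array 1. All 7 tested DLD probes had a negative fitted ratio, from -0.41 to -0.07. PDK4 had the widest spread of the list, at -0.42 ± 1.08 (SD, n = 4) for its brightest probe, with 1.06 on array 1 against -0.81, -0.42 and -1.50 on arrays 2 to 4. All 7 of its tested probes had a negative fitted ratio, between -0.92 and -0.38, and all 7 were positive on array 1. Without array 1 the brightest probe had -0.79 with a limma adjusted p of 0.0317, against 0.457 with it, among 3401 probes that passed without that array. It was -0.05 without array 3 and -0.24 without array 4, and 0.74 with pregnant RNA read as Cy3 on every array.

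The hypoxia response genes split 8 positive to 5 negative among 13 tested of 53 listed, with a median ratio of 0.01, where 56.5% of named genes were negative. With median centring they split 11 to 2, where 36.6% of named genes were negative. In limma 0 of their brightest probes had an unadjusted p under 0.05 in either direction, against 8.49% of named genes lower and 5.33% higher. Of all 25 tested probes of the list 1 was lower and 2 were higher at that p, against 7.62% and 10.4% of all probes. FLT1, a receptor of VEGFA on endothelial cells, had -0.20, -0.30, -0.05 and -0.16 on arrays 1 to 4, a fitted -0.18 ± 0.10 (SD, n = 4) with a limma adjusted p of 0.324. HSP90AA1, a chaperone, had -0.22 ± 0.05 (SD, n = 3), though its 5 tested probes ran from -0.32 to 0.60. ERO1A, an oxidase of the endoplasmic reticulum, had 0.19 ± 0.27, the collagen prolyl hydroxylase subunit gene P4HA1 0.14 ± 0.24 in its brightest probe, with fitted ratios from -0.39 to 0.14 in 4 probes, and the binding protein gene IGFBP3 0.18 ± 0.22. Nearer to 0 were ADM (0.05 ± 0.59), a vasodilator peptide gene, HMOX1 (0.05 ± 0.22), the heme oxygenase gene, and BNIP3L (-0.04 ± 0.14), a mitophagy receptor gene. The transcriptional coactivator gene EP300 had 0.01 ± 0.06 (SD, n = 4). CITED2, whose product competes with HIF-1α for EP300, had -0.07 ± 0.22 (SD, n = 3), and TF, transferrin, had -0.12 ± 0.19.

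**Figure D4:**
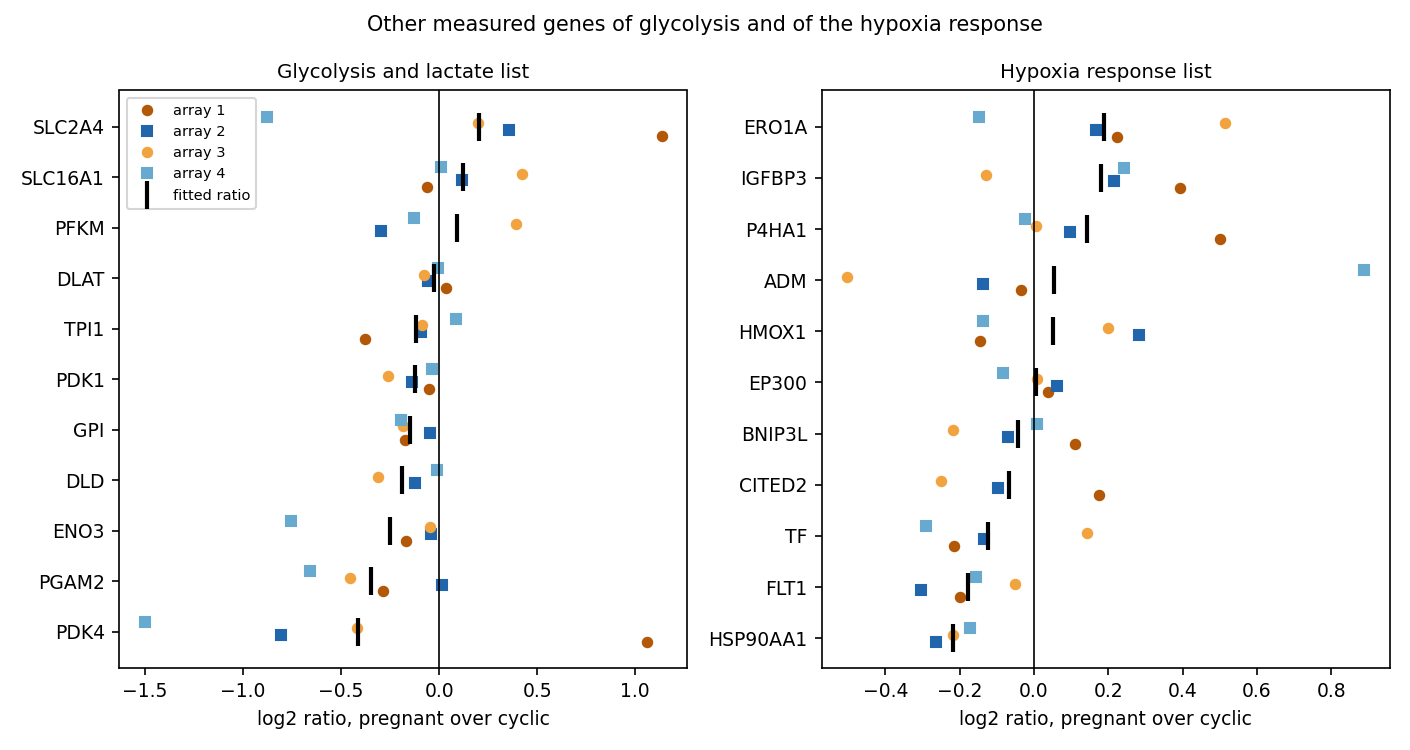
Log2 ratio of pregnant over cyclic gilts (x axis) on each array for 11 genes of the glycolysis and lactate list and 11 of the hypoxia response list (y axis, ordered by the fitted ratio, black bars). Symbols are arrays as named in the legend. PDK4 lies at 1.06 on array 1 and at -1.50 on array 4, and FLT1 is below 0 on the 4 arrays.

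Markers of vessel and connective tissue cells were set beside these values, since EPAS1 and FLT1 are expressed there. Of 10 endothelial markers 3 had a tested probe, 1 of them lower at an unadjusted p under 0.05 in limma, against 8.49% of named genes. The mean ratio of these 3 markers was 0.06, -0.23, -0.33 and -0.01 on arrays 1 to 4. Of these ENG, an endothelial co-receptor, had -0.35 ± 0.35, CDH5, an endothelial cadherin, -0.23 ± 0.48, and PECAM1 0.20 ± 0.31 (SD, n = 4 each). PECAM1 is given by its brightest probe, and its tested probes had fitted ratios from -0.26 to 0.20. The mean level of the 3 endothelial markers lay between 8.93 and 9.34 in pregnant and between 9.15 and 9.67 in cyclic gilts. Of 9 stromal and pericyte markers 5 were tested and 4 were negative, 3 of them at an unadjusted p under 0.05 in limma, against 8.49% of named genes, with a median of -0.36, mean ratios of -0.21, -0.42, -0.61 and 0.12 on arrays 1 to 4 and mean levels of 9.39 to 9.81 in pregnant and 9.60 to 10.43 in cyclic gilts. The part of these cells in the EPAS1 and LDHA ratios was not tested. SPARC and ACTA2, matrix and contractile genes, had -0.62 ± 0.28 (SD, n = 3) and -0.36 ± 0.19 (SD, n = 4), and DCN, a matrix proteoglycan gene, 0.23 ± 0.54 (SD, n = 4). Folliculostellate markers had 2 tested of 6, both negative, macrophage markers 3 of 5, with 2 negative, and posterior and intermediate lobe markers 4 of 7, with 2 negative. Of all named genes tested 56.5% were negative, and these marker lists hold too few genes to set against that share. None of the 6 red blood cell markers had a named probe.

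The named genes whose levels most resembled each member over the 8 gilts were sought among 1652 genes, using probes read on all arrays. For EPAS1 these were FLT1, with a Pearson r of 0.96, and PHACTR3, with 0.94, and over the 6 gilts of arrays 1 to 3, a check chosen after seeing the data, the same pairs had 0.95 and 0.96, but ACTA1 and LMO4, both at 0.98, stood above FLT1. The leading gene differed without array 4 for each of the 6 members. LDHA was most like BTG3 (0.95; 0.92 over 6 gilts) and ARF4 (0.94; 0.96 over 6 gilts), and VEGFA most like CALB1 (0.98; 0.96 over 6 gilts) and APPL2 (0.97; 0.93 over 6 gilts). The leading genes of LDHB (A_72_P650069) were CFL1, at 0.94, and ABHD5, at 0.88. PGK1 (A_72_P725363) was nearest to SPATA5L1, at 0.99, and HIF1A to RAB22A and GSK3B, both at 0.99. For PGK1 and HIF1A the likeness was lower without array 4: over the 6 other gilts r was 0.87 for PGK1 with SPATA5L1, and 0.84 and 0.85 for HIF1A. Array 4 stood 0.30 log2 units above arrays 1 to 3 at the median of probes outside its dim tiles and 0.82 below them inside. Gilts of 1 array share its hybridisation, and these correlations are descriptions.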

How the data were processed

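Total RNA of 8 anterior pituitaries was labelled with Cy3 or Cy5, and 825 ng of cRNA per dye was hybridised to each array, per the labels' protocols. Per the file headers, the deposited scanner files hold the median intensity of each spot and of its background, and processed intensities that were background-subtracted and dye-normalised, by Agilent Feature Extraction 10.7.3.1 on design 026440. The deposited value table holds log2 ratios. Against the processed signals its columns had slopes of -1, 1, -1 and 1, so it runs as pregnant over cyclic by the sample labels, and its medians of 0.08, -0.08, -0.18 and -0.18 show no centring. Its software is not named in the labels or headers.

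Background was corrected by normexp (offset 50), arrays were normalised by loess with control spots at weight 0, and spots with a feature outlier flag were left out. The test took probes unflagged on at least 3 arrays whose signal exceeded background clearly, for either group, on each of the 4: 21627 of 43603 probes, 19880 on 4 arrays and 1747 on 3. On 3 arrays the fitted ratio is not the plain mean. limma 3.58.1 in R 4.3.3 fitted the ratio and a dye effect per probe, with Benjamini-Hochberg adjustment over all tested probes. Values after ± are SD over arrays. Levels are loess and Aquantile values per channel. A list gene is represented by its brightest tested probe. Dim tiles of array 4 (10 by 5 spots) had lost at least 25% of the spots bright on the other arrays. The fit was tested on simulated data. Names came from 5578 probes matched to the NCBI table. The text names every member, up to 12 genes by smallest p of each pathway list, up to 3 by brightness of each marker list, and the 2 genes most like each member. ANGPT2, the other tested hypoxia gene, falls outside that rule. A few genes that the rule names are not reported here. Members and lists were chosen with earlier results of these data known. The 4 arrays share 1 slide and 1 scan, per the file headers. The files name no genome build, so no coordinates are given. The alternatives are in the closing section.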

Additional observations from a re-analysis of the deposited data

Results flagged for a closer look

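Among 54 sets of 4 values (the ratios, the pregnant levels and the cyclic levels of the member probes read on all arrays), 8 contained a gilt or array set well apart, as judged by the Dixon test at its 5% level, which flags roughly that percentage of sets when nothing is unusual. Of the 8, 7 were levels on array 4 and 1 was a ratio on array 3, and no cause of these was tested.

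In the dim tiles of array 4, the LDHB probe A_72_P662846 had a pregnant level of 10.72, against 13.92 to 14.13 in the other pregnant gilts, and a cyclic level of 10.92, against 13.89 to 14.25 in the other cyclic gilts. There too, the HIF1A probe A_72_P213487 had a cyclic level of 6.22, against 10.25 to 10.42, and A_72_P585741 one of 6.47, against 7.81 to 8.06. Outside those tiles, array 4 was high: the LDHB probe A_72_P611588 had a cyclic level of 13.14, against 12.00 to 12.12, and pregnant levels were 12.34 for the PGK1 probe A_72_P718553, against 11.72 to 11.82, and 12.47 for A_72_P440296, against 11.36 to 11.40.

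The ratio of the HIF1A probe A_72_P213487 was -1.33 on array 3, against 0.04 to 0.22 on the other arrays, where the second HIF1A probe had 0.29 on array 3. The 0.04 is of array 4, where both channels of that spot were below background, so it is no measured difference.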

How the results depend on the processing

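With 4 arrays and 8 gilts the counts of called probes are unstable, and dim probes such as EPAS1 and VEGFA lie near background. At an adjusted p under 0.05 in limma, 0 probes were called (3904 at an unadjusted p under 0.05), 1 each with Agilent's processed signals, a normexp offset of 16, no background subtraction, or a trended robust fit, 2 without the dye effect and 1046 with separate channels. Leaving out 1 array gave 0 to 3401 calls, 3401 without array 1, and 894 to 6858 probes at an unadjusted p under 0.05. Member probes lower at an unadjusted p under 0.05 numbered 2 with processed signals, 0 with median centring, 0 with pregnant RNA read as Cy3 on every array, and 2 to 5 with an array left out. Under that Cy3 reading 4 member probes were higher at an unadjusted p under 0.05 in limma, against 406 of all 21627 probes. They were LDHB A_72_P592974, A_72_P650069, A_72_P007566 and A_72_P601483, at 0.406, 0.458, 0.279 and 0.504. The ratios of any alternative had a median within 0.1 of the reported one. Each ratio pairs the 2 gilts of an array, so the reported fit is itself the paired one.

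LDHA kept its negative sign in all alternatives but the Cy3 reading, with -0.471 to -0.437 when an array was left out, and passed with separate channels (-0.454) and without array 1. EPAS1 kept its sign in the same alternatives, with -0.524 to -0.327 when an array was left out, and passed with separate channels (-0.426). Reading pregnant RNA as Cy3 on every array turned LDHA (0.151), EPAS1 (0.068), EPAS1 minus HIF1A (0.028), LDHB A_72_P662846 (0.1) and A_72_P611588 (0.003), PGK1 A_72_P725363 (0.123), ENO3 (0.145), PDK4 (0.737), DLAT (0.005), FLT1 (0.052), HSP90AA1 (0.073), IGFBP3 (-0.049), TF (0.088), CITED2 (0.009), HMOX1 (-0.023) and ADM (-0.322). Median centring turned LDHB A_72_P662846 (0.077) and A_72_P529705 (0.094), PGK1 A_72_P725363 (0.185), GPI (0.023), DLD (0.085), TPI1 (0.03), DLAT (0.107), HSP90AA1 (0.124), CITED2 (0.058) and BNIP3L (0.096). Processed signals turned LDHB A_72_P662846 (0.017) and A_72_P529705 (0.028), PGK1 A_72_P725363 (0.085), DLAT (0.046) and BNIP3L (0.027). The deposited value table turned LDHB A_72_P627361 (-0.13), PGK1 A_72_P718553 (-0.02), PFKM (-0.011), HMOX1 (-0.006) and EP300 (-0.013). LDHB A_72_P627361 was -0.105 with flagged spots kept, PFKM -0.01 without the dye effect, and LDHB -0.009 as the mean of its tested probes. For these the cause was not tested.

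Leaving out 1 array also turned signs, with ranges of -0.129 to 0.051 for LDHB A_72_P662846, -0.062 to 0.175 for A_72_P650069, -0.076 to 0.163 for A_72_P551931, -0.068 to 0.158 for A_72_P007566 and -0.033 to 0.203 for A_72_P601483. Those of PGK1 were -0.057 to 0.021 for A_72_P725363 and -0.047 to 0.049 for A_72_P718553, and those of VEGFA -0.072 to 0.278 for A_72_P414353 and -0.136 to 0.011 for A_72_P441494. SLC2A4 ranged from -0.105 to 0.512, ADM from -0.203 to 0.31, HMOX1 from -0.055 to 0.156, DLAT from -0.053 to 0.004, and BNIP3L from -0.124 to 0.039. EP300 ranged from -0.03 to 0.042. Without a change of sign, leaving out 1 array gave PDK4 values from -0.786 to -0.045, ENO3 from -0.43 to -0.073, PGAM2 from -0.515 to -0.177, P4HA1 from 0.02 to 0.268, IGFBP3 from 0.05 to 0.311, SLC16A1 from 0.001 to 0.244 and TF from -0.214 to -0.034.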
